A study of Oryza sativa with 6 samples.

Results

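The short exposure of rice roots to hexavalent chromium was measured on 3 two-colour oligonucleotide arrays, out of the 6 arrays of a study of Cr(VI) stress in seedlings of the cultivar TN-67. These 3 arrays were chosen by their labels alone, without reference to any measured value. On each, RNA from roots of 6-day-old seedlings given 50 µM Cr(VI) for 1 h or 3 h, pooled over both times, was labelled with Cy5. RNA from roots kept in water was labelled with Cy3 and hybridised to the same array. The other 3 arrays set roots given 50 µM Cr(VI) for 24 h against roots in water in the same way. The arrays of each exposure are labelled as biological replicates, but the labels do not say whether the control RNA of different arrays came from the same roots. No array carried the opposite dye orientation, so a dye effect of a probe cannot be told apart from a response. Pooling of 1 h and 3 h roots means that the order of events within the short exposure was not measured. Short array 1 was on one slide and short arrays 2 and 3 on a second slide, whereas all 24 h arrays were on another slide.

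Chromate resembles sulfate and enters root cells through sulfate transporters, and its reduction inside the cell generates reactive oxygen species. Early plant responses to such stress commonly run through calcium sensors and protein kinases, stress-related transcription factors, and the hormones jasmonate, ethylene and abscisic acid. Their targets include detoxifying enzymes, membrane exporters and defence metabolism.

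Each value below is a log2 ratio of Cr(VI)-treated over water-control roots, positive where the treated roots were higher, given as the mean ± SD of 3 arrays unless stated. A gene was called higher or lower where limma's moderated test of that mean against 0 gave a Benjamini-Hochberg adjusted p under 0.05 over all 23485 genes tested. Of 30205 genes on the array, 23485 passed the filter on dim probes and were tested, 23220 by locus number and 265 as microRNA probes. The files identify genes by locus number of the Rice Annotation Project and give no gene names. Names used here are published pairs of name and locus, recalled and not read from a file. A pair was kept only where the reference table lists that name on the same chromosome and within 250 kb of the place that the locus number, which follows gene order, predicts. Of 597 names tried, 566 passed, with a median offset of 9.0 kb. This check cannot tell tandem neighbours apart. Of the names that passed, 560 were on the array and 477 were tested, so 1149 of the 1230 loci called at 2-fold or more carry no name here.

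The short response was broad in number and mostly upward among its larger changes. The test called 7177 genes higher (30.6%) and 5673 lower (24.2%), around a median log2 ratio of 0.018. At 2-fold or more, 1082 were higher (4.61%) and 150 lower (0.639%), and at 4-fold or more 272 were higher and 5 lower. The balance of smaller changes moved with the scaling of the arrays. With the scanner software's processed signals 5709 genes were higher and 7689 lower, and 1852 were at least 2-fold higher against 736 lower. Median centring in place of loess gave 5709 higher and 4055 lower. The signal of 313 genes stood well above background in the treated channel of all 3 arrays and in the control channel of none, and the reverse held for 5 genes. Detection itself differed by channel. On arrays 1, 2 and 3, 75.9%, 79% and 73% of spots were well above background in the treated channel. In the control channel 75.3%, 72.8% and 68.1% were, and the part of this in the 313 and 5 was not tested. The 3 arrays correlated across genes at r between 0.881 and 0.923, a description in which all genes share the same RNA and hybridisation. Of 5 tested markers of green shoot tissue, 1 was higher (PSBW, at 0.53) and none lower. CHLH and PETE were well above background in both channels on all 3 arrays, as was LHCP (Os03g0592500), which was not tested. PORB was above background in neither channel. Over the 6 such markers with values, the summed signal ranged from 1010 to 1150 in treated roots and from 972 to 999 in control roots, and its part in any result was not tested.

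The named loci were called higher more often than the background. Of 477, 212 were higher (44.4%) and 98 lower (20.5%), with 74 and 7 at 2-fold or more and a median of 0.16. The names were chosen as genes of known stress, hormone and nutrient families, with earlier results of these data known. This share thus describes the chosen names and not the genome, and the excess is no independent support. With both arrays of slide 2 left out, 137 were higher and 62 lower. The counts of each list below stand beside the 30.6% higher and 24.2% lower of all genes tested. The plot of the largest changes shows the 16 named rises and 10 named falls by array.

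**Figure D1:**
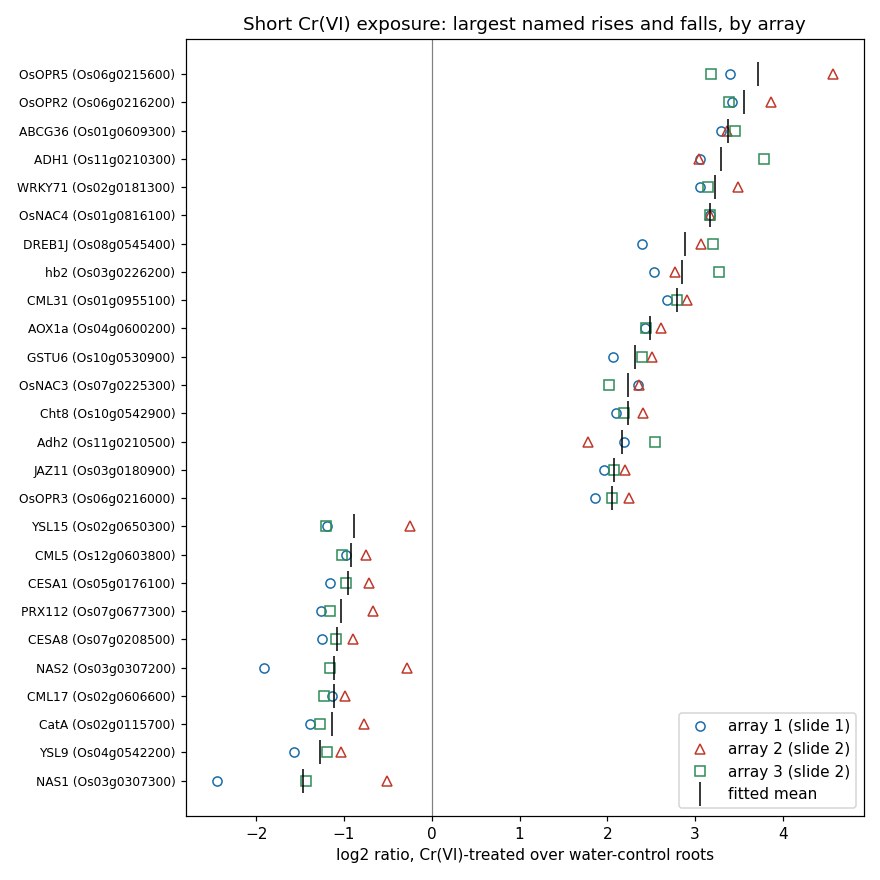
The horizontal axis gives the log2 ratio of Cr(VI)-treated over water-control roots for the 16 largest rises and 10 largest falls among named loci. Symbols mark the 3 short-exposure arrays and their slide, and the vertical bar is the fitted mean. OsOPR5 has the largest mean at 3.72, OsNAC4 the tightest points at 3.17, and array 2 lies nearest 0 for each of the 10 falls.

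Among 13 MAP kinases and their kinases, which pass stress signals by phosphorylation, 3 were higher and 4 lower around a median of -0.04, shares near the 30.6% and 24.2% of all genes tested. Without 24 h array 3, or with median centring, 2 of them were lower. MPK5 (Os03g0285800), a kinase known for roles in defence and abiotic stress tolerance, rose by 1.40 ± 0.01 (adjusted p = 7.1e-07). MPK4 (Os06g0699400) and MPK13 (Os02g0135200) were higher at 0.46 and 0.34. MPK17 (Os05g0576800) was lower at -0.78 ± 0.10 and MPK7 (Os05g0566400) at -0.45 ± 0.30. The largest difference within this family thus lay between MPK5 and MPK17.

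Calcium-dependent protein kinases couple a calcium signal directly to phosphorylation. Of 16 tested, 7 were higher and 3 lower, with a median of 0.03, against 30.6% higher and 24.2% lower over all genes tested. The count higher was 4 without short array 3, and the count lower was 5 without short array 2. CPK4 (Os02g0126400) had the largest rise at 1.29 ± 0.26, followed by CPK13 (Os04g0584600) at 0.85, measured on short arrays 2 and 3 only, and CPK20 (Os07g0568600) at 0.73 ± 0.14. A further probe of CPK20 read 0.14. CPK6 (Os02g0832000) was lower at -0.62 ± 0.19 and CPK19 (Os07g0515100) at -0.24 ± 0.05.

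The calmodulin-like proteins, which bind calcium and have no kinase domain, were more often lower. Of 17 tested, 4 were higher and 9 lower, with a median of -0.25, against 30.6% higher and 24.2% lower over all genes tested. The treated roots gave a CML31 (Os01g0955100) signal of 1276, 1417 and 1522 on arrays 1, 2 and 3, in arbitrary units after normalization of both channels, against 198.7, 188.2 and 219.1 in control roots. The channels did not overlap, and CML31 rose by 2.80 ± 0.12 (adjusted p = 1.6e-07). CML16 (Os01g0135700) rose by 1.60 ± 0.41 and CML4 (Os03g0743500) by 0.45 ± 0.22. In the opposite direction, CML17 (Os02g0606600) had a signal of 1197, 1335 and 1096 in treated roots, against 2632, 2657 and 2573 in control roots. CML17 was lower at -1.12 ± 0.12 and CML5 (Os12g0603800) at -0.92 ± 0.15.

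The named NAC and WRKY factors had the highest medians of the lists with 5 or more members tested. Like every list here, these hold the names recalled and checked, not whole families. NAC factors are plant-specific regulators of stress responses and development. Of 8 tested, 6 were higher and 1 lower, with a median of 1.64. OsNAC4 (Os01g0816100), known in rice as a regulator of hypersensitive cell death, gave 4372, 2906 and 3100 in treated roots, against 486.3, 323.7 and 344.2 in control roots. Its log2 ratio was 3.17 on every array (adjusted p = 3.3e-07), so the signal differed between arrays while the ratio did not. OsNAC3 (Os07g0225300) rose by 2.24 ± 0.20 and the stress factor SNAC2 (Os01g0884300) by 1.94 ± 0.13 (adjusted p = 1.1e-06 and 5.4e-07). The exception was OsTIL1 (Os04g0460600), a NAC factor known for its effect on plant architecture, at -0.74 ± 0.09.

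All 5 named WRKY factors tested were higher, between 1.18 and 3.23. WRKY71 (Os02g0181300), a regulator in hormone and defence signalling, gave 13310, 9608 and 12090 in treated roots, against 1603, 854.9 and 1365 in control roots. It rose by 3.23 ± 0.23 (adjusted p = 5.4e-07) with no overlap between the channels. WRKY62 (Os09g0417800), a regulator of defence genes, was not well above background in control roots on any short array and was at least 3.63-fold higher in treated roots (adjusted p = 4.3e-05). Such a bound takes, for each array, the higher of the control signal measured and the lowest signal of any probe well above background, with both channels normalized, and is open to dye bias. For the 5 loci given a bound here the measured signal was the higher on 2 or 3 arrays, so the bounds equal the measured folds to 3 digits. They are called bounds because a control signal near background may overstate the control level. The next member by size, WRKY24 (Os01g0826400), rose by 1.22 ± 0.22, and its other probes gave 2.06 to 2.26.

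The DREB and ERF factors, known from cold, drought and ethylene responses, were more mixed. Of 12 tested, 7 were higher and 2 lower, with a median of 0.33, against 30.6% higher and 24.2% lower over all genes tested. DREB1J (Os08g0545400) gave 896, 887.5 and 848.1 in treated roots, against 170.9, 105.7 and 91.88 in control roots, where 1 array was well above background. It rose by 2.89 ± 0.44 (adjusted p = 9e-06). Its neighbour on chromosome 8, DREB1I (Os08g0545500), varied more, with log2 ratios of 0.67, 2.16 and 2.71 on arrays 1, 2 and 3 and a mean of 1.84 ± 1.06. Without array 1 that mean was 2.43, and on array 1 alone, with the spread taken from the other arrays, the call was lost (adjusted p = 0.37). DREB2B (Os05g0346200), a factor known from heat and drought responses, rose by 1.00 ± 0.12.

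Both lower calls in that list were small or rested on the probe. EREBP1 (Os02g0782700) stood at -0.20 ± 0.10 and lost its call without short array 1 (-0.16, adjusted p = 0.12) or short array 3 (-0.20, adjusted p = 0.091), leaving 1 member lower. DREB1E (Os04g0572400) was lower at -0.52 ± 0.26 on its brightest probe, whereas its other probes gave 0.36 and 0.42 and the median over probes was 0.36 (adjusted p = 0.017).

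Heat stress factors, which control chaperone genes, were mostly higher. Of 20 tested, 12 were higher and 1 lower, with a median of 0.31, against 30.6% higher and 24.2% lower over all genes tested. HSFA2A (Os03g0745000) rose by 1.76 ± 0.19, with other probes at 0.43 to 1.18. HSFA4D (Os05g0530400) is the factor of the spotted-leaf gene Spl7. On its brightest probe it was not well above background in control roots and was at least 2.52-fold higher in treated roots (adjusted p = 2.6e-06). Its other probes above background gave log2 ratios of 0.47 to 1.04, against 1.33 on the brightest, so the bound holds for that probe only. HSFA3 (Os02g0527300) rose by 1.20 ± 0.28, and HSFA2B (Os07g0178600) was the lower member at -0.34 ± 0.01. Among small heat shock proteins, chaperones that such factors are known to control, 8 of 14 were higher and 3 lower, with a median of 0.26. Their share lower was near the 24.2% of all genes tested. HSP17.9B (Os01g0135900), HSP17.7 (Os03g0267000) and HSP24.1 (Os02g0758000) were higher at 1.5, 1.47 and 1.39. HSP18.9 (Os02g0128000) was lower at -0.38 ± 0.20, and HSP23.2 (Os04g0445100) at -0.29 ± 0.21. HSP23.2 lost its call without short array 1 (-0.22, adjusted p = 0.1) or short array 3 (-0.25, adjusted p = 0.094), and 1 member of the list was then lower.

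**Figure D2:**
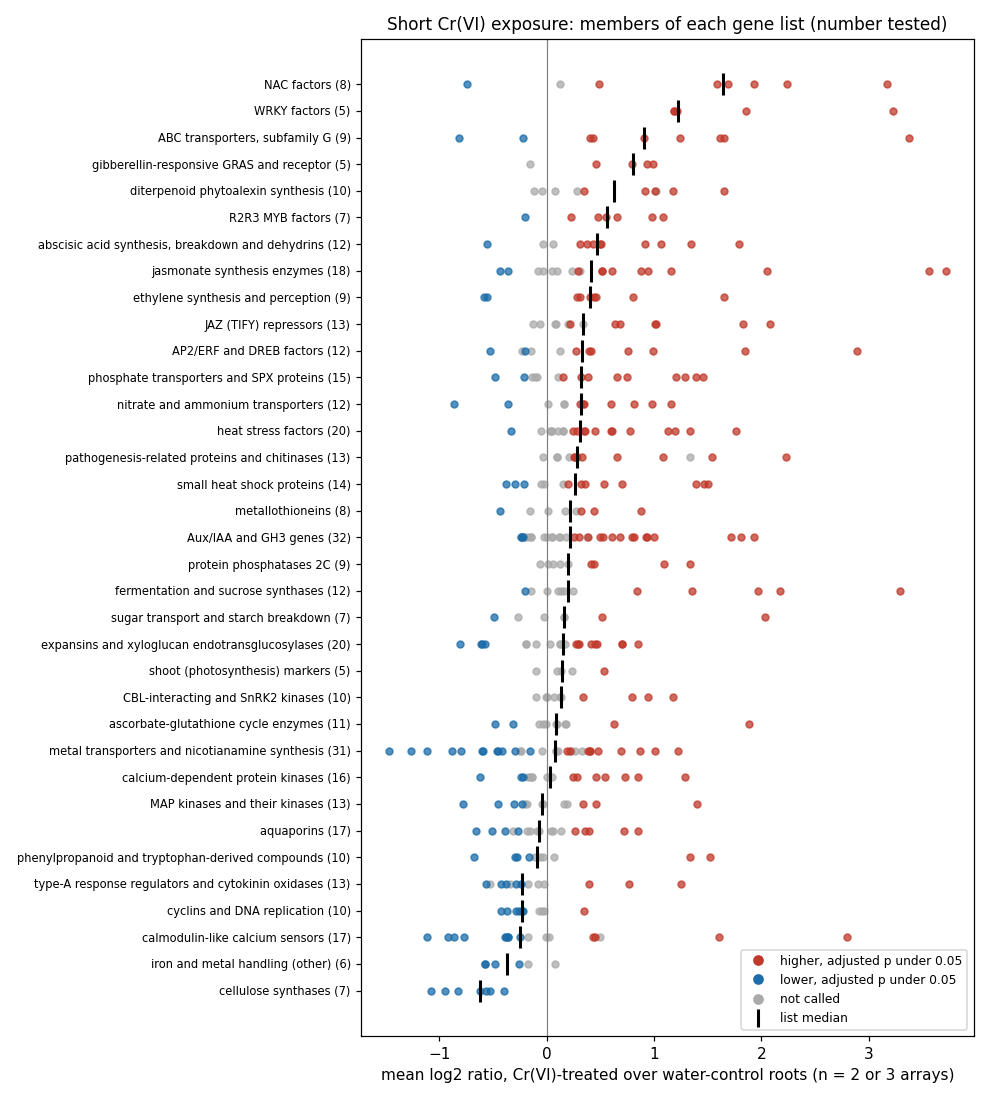
Each point is one named locus placed by its mean log2 ratio of Cr(VI)-treated over water-control roots, in rows by gene list with the number tested. Red points were called higher, blue lower and grey not called, and the black bar is the list median. NAC factors have the highest median at 1.64, and all 7 cellulose synthases lie below 0.

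Loci listed with the jasmonate synthesis enzymes gave the largest rises of any named loci. Jasmonate is made from linolenic acid by lipoxygenase, allene oxide synthase, allene oxide cyclase and 12-oxophytodienoate reductase. Of 18 genes listed as synthesis enzymes, 10 were higher and 2 lower, with a median of 0.41. OsOPR5 (Os06g0215600) gave 8846, 8062 and 8190 in treated roots, against 838.8, 339.7 and 899.6 in control roots. The treated signals lay close together and the control of array 2 was the lowest, so the log2 ratios were 3.40, 4.57 and 3.19 and their mean 3.72 ± 0.75 (adjusted p = 5.9e-06). OsOPR2 (Os06g0216200) gave 9240, 10380 and 9283 in treated roots, against 859.7, 711.7 and 886.4 in control roots. It rose by 3.56 ± 0.27 (adjusted p = 8.3e-08).

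OsOPR3 (Os06g0216000), from the same tandem group on chromosome 6, gave 351.8, 528.9 and 412.5 in treated roots and was not well above background in control roots, a rise of at least 4.15-fold (adjusted p = 2e-06). Both the probe signals and the names of these near copies are uncertain within the group. OsOPR7 (Os08g0459600), the family member known to act in jasmonate synthesis, stood at -0.03 ± 0.15 and was not called (adjusted p = 0.71). Whether OsOPR5, OsOPR2 and OsOPR3 act in that synthesis was not tested. OsOPR8 (Os02g0559400) was lower at -0.43 ± 0.12. AOS4 (Os02g0218800), listed as an allene oxide synthase, was lower at -0.36 ± 0.10. It lost its call without short array 1 (-0.33, adjusted p = 0.1) or short array 2 (-0.34, adjusted p = 0.08), and 1 member of the list was lower without short array 1.

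JAZ proteins repress jasmonate responses and are themselves transcribed in response to the hormone. Of 13 tested, 7 were higher and none lower, with a median of 0.34. JAZ11 (Os03g0180900) gave 3873, 4528 and 2389 in treated roots, against 994.4, 987.8 and 565.9 in control roots, a rise of 2.08 ± 0.12 (adjusted p = 2.4e-05). JAZ12 (Os10g0392400) rose by 1.83 ± 0.15 and JAZ6 (Os03g0402800) by 1.02 ± 0.26. The other 6 members did not pass the test.

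Of 9 genes of ethylene synthesis and perception, 7 were higher and 2 lower, with a median of 0.40. The higher members were the 4 synthesis genes tested and 3 genes of perception and signalling, ETR2 (Os04g0169100), EIL1A (Os03g0324200) and EIL1B (Os03g0324300), at 0.31 to 0.44. The ACC synthase ACS2 (Os04g0578000), which makes the ethylene precursor, gave 821.9, 520.3 and 592 in treated roots, against 246.6, 170.5 and 194 in control roots. It rose by 1.65 ± 0.07 (adjusted p = 3.1e-06). ACS1 (Os03g0727600), a second ACC synthase, was higher at 0.46 ± 0.08, and the ACC oxidase ACO1 (Os09g0451000), which makes ethylene itself, at 0.81 ± 0.08. In the lower direction, the signalling protein EIN2 (Os07g0155600) stood at -0.56 ± 0.03 and the receptor ETR3 (Os02g0820900) at -0.58 ± 0.05.

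Genes of abscisic acid and its dehydrin targets rose in most cases. Of 12 tested, 9 were higher and 1 lower, with a median of 0.47. The late-embryogenesis protein LEA3-1 (Os05g0542500) rose by 1.79 ± 0.28, with other probes at 0.30 to 1.84. The dehydrins RAB16D (Os11g0453900) and RAB21 (Os11g0454300) rose by 1.35 ± 0.14 and 1.07 ± 0.19. ABA8OX2 (Os08g0472800), a hydroxylase that breaks abscisic acid down, was the lower member at -0.56 ± 0.04.

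Auxin-responsive genes were higher more often than lower. Aux/IAA proteins repress auxin responses, and GH3 enzymes attach amino acids to the hormone. Of 32 tested, 15 were higher and 3 lower, with a median of 0.22, against 30.6% higher and 24.2% lower over all genes tested. The count lower was 1 without short array 3 and 5 without 24 h array 3. GH3.2 (Os01g0764800) rose by 1.93 ± 0.23, IAA9 (Os02g0805100) by 1.81 ± 0.36 and IAA20 (Os06g0166500) by 1.72 ± 0.70. IAA4 (Os01g0286900) was lower at -0.24 ± 0.07 and lost its call without short array 3 (-0.21, adjusted p = 0.054). IAA13 (Os03g0742900) was lower at -0.23 ± 0.10. It lost its call without short array 1 (-0.17, adjusted p = 0.098) and had the opposite sign with median centring (0.11, adjusted p = 0.45).

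Genes of fermentation and alternative respiration were among the largest rises. Pyruvate decarboxylase and alcohol dehydrogenase regenerate NAD+ when respiration is limited, non-symbiotic hemoglobins scavenge nitric oxide, and the alternative oxidase bypasses part of the mitochondrial electron chain. Of 12 fermentation and sucrose synthase genes, 5 were higher and 1 lower, with a median of 0.20. ADH1 (Os11g0210300) gave 22970, 17640 and 31710 in treated roots, against 2758, 2141 and 2302 in control roots. It was higher on all arrays and highest on array 3, with a mean of 3.29 ± 0.42 (adjusted p = 7e-07) and other probes at 1.80 to 3.47. Adh2 (Os11g0210500) rose by 2.17 ± 0.38, with other probes at 1.25 to 1.31.

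PDC1 (Os05g0469600) gave 8294, 6057 and 11680 in treated roots, against 2129, 1885 and 2433 in control roots. It rose by 1.97 ± 0.29 (adjusted p = 3.6e-06), with other probes at 2.21 to 3.37. PDC3 (Os07g0693100), whose signal was near background, stood at -0.21 ± 0.07 and lost its call without short array 1 (-0.19, adjusted p = 0.097) or short array 3 (-0.18, adjusted p = 0.11). Both hemoglobins tested were higher. The hb2 signal (Os03g0226200) was 574, 644.9 and 1022 in treated roots and not well above background in control roots on any array, a rise of at least 7.25-fold (adjusted p = 0.00025). The signal of hb3 (Os03g0234000) was 6803, 6328 and 8487 in treated roots, against 2742, 2418 and 2788 in control roots, a rise of 1.43 ± 0.15.

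AOX1a (Os04g0600200), the only alternative oxidase listed, gave 3016, 3224 and 2486 in treated roots, against 559.6, 529.3 and 458.4 in control roots. It rose by 2.49 ± 0.10 (adjusted p = 7e-07) with no overlap between the channels. Among 7 genes of sugar transport and starch breakdown, 2 were higher and 1 lower. The share higher was near the 30.6% of all genes tested, and the share lower was below their 24.2%. AMY3D (Os08g0473900), a sugar-repressed alpha-amylase, gave 617.7, 207.6 and 456.5 in treated roots and was not well above background in control roots. It was at least 4.10-fold higher (adjusted p = 0.00039), with array 2 clearly the lowest. The sucrose transporter SUT1 (Os03g0170900) rose by 0.52 ± 0.08. SWEET16 (Os03g0341300), a sugar carrier, stood at -0.49 ± 0.42 and lost its call without short array 1 (-0.38, adjusted p = 0.093) or short array 3 (-0.36, adjusted p = 0.094).

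**Figure D3:**
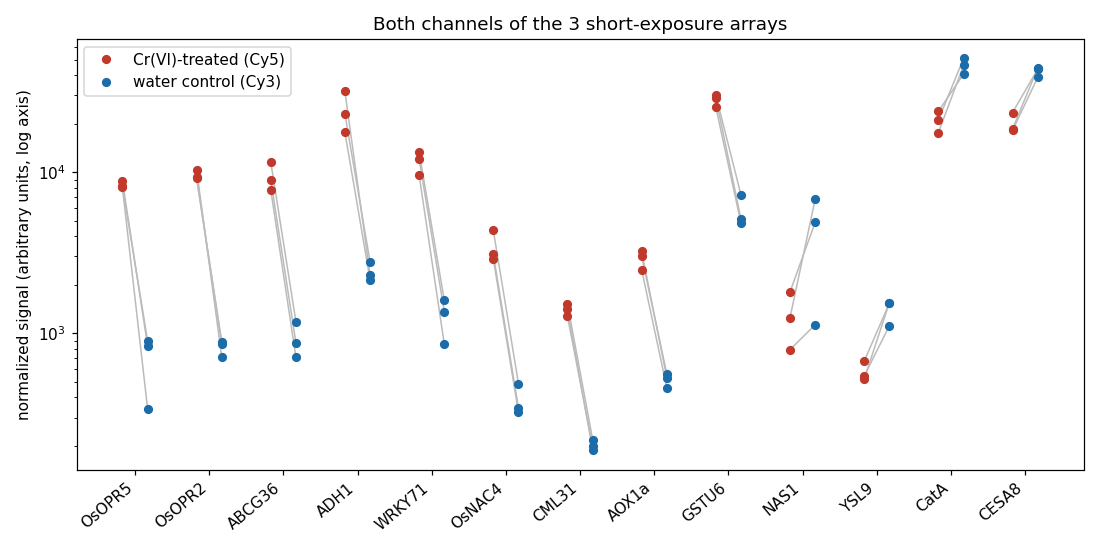
Normalized signals of both channels are shown on a log axis for 13 named loci, with Cr(VI)-treated roots left, water-control roots right and a grey line joining the channels of one array. For ADH1 the treated signals run between 17640 and 31710 and the control signals between 2141 and 2758. For NAS1 the control signal of array 2 (1131) lies below the treated signals of arrays 1 and 3 (1248 and 1804).

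Glutathione S-transferases join glutathione to toxic compounds. Of 4 tested, 2 were higher and none lower. GSTU6 (Os10g0530900) gave 30100, 28970 and 25380 in treated roots, against 7211, 5100 and 4822 in control roots. It rose by 2.32 ± 0.23 (adjusted p = 6.2e-07), and GSTU1 (Os03g0785900) by 0.72 ± 0.09. Among 11 enzymes of the ascorbate-glutathione cycle, which removes hydrogen peroxide, 2 were higher and 2 lower, both smaller shares than over all genes tested. Without 24 h array 1 or 24 h array 2 the count higher was 1, since GRC2 had too few values to be tested. The monodehydroascorbate reductase MDAR1 (Os02g0707000) rose by 1.88 ± 0.04 (adjusted p = 1.5e-07) and the glutathione reductase GRC2 (Os02g0813500) by 0.63 ± 0.18. The ascorbate peroxidases APX5 (Os12g0178200) and APX6 (Os12g0178100) were lower at -0.48 ± 0.09 and -0.32 ± 0.02.

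Of 4 superoxide dismutases and catalases, 1 was lower and none higher, a share lower near the 24.2% of all genes tested. The catalase CatA (Os02g0115700), which breaks down hydrogen peroxide, gave 17570, 23840 and 21030 in treated roots, against 45930, 40600 and 50780 in control roots. It fell by 1.14 on the log2 scale, with an SD of 0.33 (adjusted p = 0.00079). Both named class III peroxidases tested, cell wall enzymes that use hydrogen peroxide, were lower, PRX112 (Os07g0677300) at -1.03 ± 0.32 and PRX74 (Os05g0499400) at -0.83 ± 0.07.

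Exporters of the ABCG subfamily rose together apart from 2 members. Many of these plasma membrane pumps export defence compounds, lipids or xenobiotics. Of 9 tested, 7 were higher and 2 lower, with a median of 0.91. ABCG36 (Os01g0609300) gave 11580, 8951 and 7774 in treated roots, against 1178, 870.5 and 708.1 in control roots. It rose by 3.37 ± 0.08 (adjusted p = 5.4e-06). Its neighbour ABCG35 (Os01g0609200) rose by 1.62 ± 0.25 and ABCG44 (Os08g0384500) by 1.66 ± 0.25.

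OsABCG5 (Os03g0281900), which rice roots need to deposit suberin in the hypodermis, gave 275.7, 195.2 and 249.4 in treated roots, against 660.3, 181.5 and 607.6 in control roots. Its log2 ratios were -1.26, 0.11 and -1.29, so array 2 did not share the direction of arrays 1 and 3. The mean of -0.81 ± 0.80 (adjusted p = 0.035) lost its call without short array 1 (-0.59, adjusted p = 0.19), short array 3 (-0.58, adjusted p = 0.19) or 24 h array 2 (-0.81, adjusted p = 0.054). ABCG32 (Os01g0342700) stood at -0.23 ± 0.07 and lost its call without short array 1 (-0.20, adjusted p = 0.066) or short array 2 (-0.21, adjusted p = 0.055). The count lower in this list was then 0 without short array 1 and 1 without short array 2, short array 3 or 24 h array 2. The 3 genes listed for aluminium tolerance were all higher. STAR2 (Os05g0119000) and STAR1 (Os06g0695800), which form a transporter required for that tolerance, stood at 1.47 ± 0.34 and 0.54 ± 0.11. ART1 (Os12g0170400), the factor that controls them under aluminium, stood at 0.44 ± 0.06.

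Defence genes rose in several branches. Among 13 pathogenesis-related proteins and chitinases, 8 were higher and none lower, with a median of 0.28. The chitinases Cht8 (Os10g0542900) and Cht6 (Os02g0605900) were higher at 2.23 ± 0.16 and 1.09 ± 0.22, although another probe of Cht8 read 0.11. NH1 (Os01g0194300), the rice homologue of the salicylate regulator NPR1, rose by 1.54 ± 0.22 (adjusted p = 3.3e-06). PBZ1 (Os12g0555500), a probenazole-induced defence protein, had a mean of 1.34 but an SD of 1.72 and was not called (adjusted p = 0.13).

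Rice makes diterpenoid phytoalexins, among them the momilactones, which are made from a gene cluster on chromosome 4. The list of diterpenoid phytoalexin genes also holds loci on chromosomes 2, 6 and 12. Of its 10 genes tested, 5 were higher and none lower, with a median of 0.63. The count was 3 without short array 1 or short array 3. The diterpene synthase KSL4 (Os04g0179700) rose by 1.18 ± 0.11. CYP99A3 (Os04g0178400), a cytochrome P450 of the cluster, stood at 1.65 ± 0.62 and lost its call without short array 1 (1.29, adjusted p = 0.078). OsMAS (Os04g0179200), momilactone A synthase, stood at 1.01 ± 0.26 (adjusted p = 0.041). It lost its call without short array 1 (0.92, adjusted p = 0.15), short array 2 (0.95, adjusted p = 0.11), short array 3 (1.16, adjusted p = 0.073) or 24 h array 2 (1.01, adjusted p = 0.058).

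Phenylpropanoid genes, which lead to lignin and flavonoids, split between close relatives. Of 10 tested, 2 were higher and 4 lower, and 2 were lower without short array 1, without short array 3 or with median centring. Over all genes tested 30.6% were higher and 24.2% lower. The 4-coumarate ligase Os4CL5 (Os08g0448000) rose by 1.53 ± 0.23, whereas Os4CL1 (Os08g0245200) was lower at -0.68 ± 0.19. ZB8 (Os02g0627100), a phenylalanine ammonia-lyase at the entry of the pathway, rose by 1.34 ± 0.25. The chalcone isomerase CHI (Os03g0819600) stood at -0.30 ± 0.21 and lost its call without short array 1 (-0.19, adjusted p = 0.14) or short array 3 (-0.30, adjusted p = 0.074).

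Graminaceous roots take up iron both as the free ion and bound to phytosiderophores, which are made from nicotianamine. Of 31 metal transport and nicotianamine synthesis genes, 10 were higher and 12 lower, with a median of 0.08, so the share higher was near that of all genes tested. IRT2 (Os03g0667300), an iron uptake transporter, rose by 1.23 ± 0.19, IRO3 (Os03g0379300), a regulator of the iron deficiency response, by 1.01 ± 0.16, and YSL12 (Os04g0524600), of the yellow stripe-like family, by 0.87 ± 0.16. IRT1 (Os03g0667500) stood at 0.10 ± 0.32 and was not called.

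The 4 largest falls of the 12 were of NAS1, NAS2, YSL9 and YSL15. The other 8, zinc and iron transporters among them, lay between -0.80 and -0.15. NAS1 (Os03g0307300), a nicotianamine synthase, gave 1248, 792.1 and 1804 in treated roots, against 6814, 1131 and 4891 in control roots. Its mean was -1.47 ± 0.97 (adjusted p = 0.0061), the largest fall of a named locus. The near-identical neighbour NAS2 (Os03g0307200) gave 6276, 4215 and 8661 in treated roots, against 23600, 5141 and 19310 in control roots, and stood at -1.12 ± 0.81 (adjusted p = 0.0069). For both, the control signal of array 2 was far below those of arrays 1 and 3. Probes of the pair may detect both genes.

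YSL15 (Os02g0650300), which imports iron bound to phytosiderophore, gave 1398, 872.2 and 1259 in treated roots, against 3207, 1037 and 2904 in control roots, again with a low control on array 2, and stood at -0.89 ± 0.55 (adjusted p = 0.0041). YSL9 (Os04g0542200) gave 519.6, 543 and 671.1 in treated roots, against 1549, 1114 and 1537 in control roots, and stood at -1.27 ± 0.28. On array 1 alone NAS1 read -2.45 and NAS2 -1.91. These 4 calls remained when any single array was left out. Whole roots were sampled, so fewer cells of a type and less RNA per cell cannot be told apart.

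Phosphate and nitrate transporters were mostly higher. Of 15 phosphate transporters and SPX proteins, which sense phosphate status, 9 were higher and 2 lower, with a median of 0.32. OsPht1;1 (Os03g0150600) and OsPht1;3 (Os10g0444600) rose by 1.46 ± 0.14 and 1.40 ± 0.04. OsPht1;4 (Os04g0186400) was higher at 1.29 ± 0.17 on its brightest probe, but its other probes ranged from 0.16 to 1.11 and the median over probes was 0.29 (adjusted p = 0.11). SPX3 (Os10g0392600) was lower at -0.48 ± 0.14. SPX5 (Os03g0406100) stood at -0.22 ± 0.16 and lost its call without short array 1 (-0.14, adjusted p = 0.19), short array 2 (-0.20, adjusted p = 0.11) or 24 h array 2 (-0.22, adjusted p = 0.05). The list then held 1 lower member without short array 1 or 24 h array 2.

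Of 12 nitrate and ammonium transporters, 7 were higher and 2 lower, with a median of 0.32. The high-affinity nitrate transporters NRT2.3 (Os01g0704100) and NRT2.2 (Os02g0112600) rose by 1.16 ± 0.23 and 0.82 ± 0.24. Their partner protein NAR2.1 (Os02g0595900) rose by 0.98 ± 0.40. The ammonium transporters AMT3-3 (Os02g0550800) and AMT2-3 (Os01g0831300) were lower at -0.86 ± 0.08 and -0.36 ± 0.09.

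The named cellulose synthases fell together. All 7 tested members of this enzyme group, which spins cellulose into the wall, were lower, between -1.08 and -0.40, with a median of -0.62. CESA8 (Os07g0208500) gave 18540, 23420 and 18180 in treated roots, against 44260, 43650 and 38700 in control roots, a mean of -1.08 ± 0.18 (adjusted p = 1.4e-05). CESA1 (Os05g0176100) stood at -0.95 ± 0.22, with other probes at -0.76 to -0.20. Expansins and xyloglucan endotransglucosylases, which loosen the wall, did not share this direction. Of 20 tested, 9 were higher and 4 lower, with a median of 0.15, against 30.6% higher and 24.2% lower over all genes tested. EXPA3 (Os05g0276500), EXPB11 (Os02g0658800) and EXPA8 (Os01g0248900) were higher at 0.85, 0.70 and 0.70. EXPA9 (Os01g0249100) and EXPA10 (Os04g0583500) were lower at -0.81 and -0.61.

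The 19 further lists of named genes, which include aquaporins, cyclins, metallothioneins and cytokinin genes, held 115 tested members. Of these, 38 were higher and 27 lower, shares near the 30.6% and 24.2% of all genes tested, with a median of 0.04. Among the 265 microRNA probes, made to precursors and mature strands, 84 were higher and 21 lower. The share higher was near the 30.6% of all genes tested, and the share lower was below their 24.2%. All 4 probes of miR531 were higher, and the largest change, on the 5′ sequence of its chromosome 11 copy, was 0.46 ± 0.07 (adjusted p = 0.0041). Without short array 1 or short array 3 the count was 1, and without short array 2 it was 2. Of 30 miR166 probes 7 were higher and none lower, both smaller shares than over all genes tested, and 11 were higher without short array 1. The 5′ sequence of miR166m had the largest change of that family at 0.63 ± 0.16 (adjusted p = 0.00015). Neither of these changes reached 2-fold. Of 19 miR171 probes, 1 was higher and 7 lower, with a median of -0.14. The lower calls were all on precursor sequences, and no mature-strand probe of the family was called. The lower miR171a 3′ sequence (-0.20) was well above background in no treated and 1 control channel of the short arrays. The called probes at 2-fold or more were the miR416 3′ sequence, at 1.19 ± 0.20 (adjusted p = 8.8e-06), and the miR171g 3′ sequence, at -1.09 ± 0.91 (adjusted p = 0.014). The miR171g probe read -2.01, -0.20 and -1.05 on arrays 1, 2 and 3.

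Loci called at least 2-fold higher were spread over all 12 chromosomes, at 3.85% to 5.62% of the loci tested on each. At least 2-fold lower calls made up 0.436% to 0.911%. There were 16 runs of 3 or more neighbouring tested loci that were all at least 2-fold higher, with 50 loci in them, and no such run of lower loci. Far fewer loci were lower than higher at 2-fold, so the counts of runs cannot be compared, and no expected number was computed. The run of 4 on chromosome 8 held DREB1J and DREB1I, a run of 3 on chromosome 1 held CML31, and a run of 3 on chromosome 5 held PDC1. At a threshold of 1.5-fold the runs numbered 64 higher and 6 lower, and at 4-fold 2 higher.

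The short response was then set against the response at 24 h by the difference of the log2 ratios, short minus 24 h. Over all genes tested the difference was above 0 in 5239 (22.3%) and below 0 in 3845 (16.4%). Of the 477 named loci it was above 0 in 181 and below 0 in 67. Each exposure was hybridised on slides of its own, so a slide effect cannot be told apart from the exposure. Both sets of ratios used water-control roots, but the labels do not say whether any control RNA was shared.

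Several genes of fermentation, signalling and transcription were higher at the short exposure than at 24 h. ADH1 averaged 3.29 ± 0.42 at the short exposure and 1.55 ± 0.07 at 24 h, a difference of 1.74 with a standard error of 0.19 (adjusted p = 0.00026). PDC1 averaged 1.97 ± 0.29 at the short exposure and 0.47 ± 0.18 at 24 h. By contrast, AOX1a averaged 2.49 ± 0.10 at the short exposure and 2.85 ± 0.29 at 24 h, and its difference of -0.36 was not called (adjusted p = 0.072). WRKY71, CML31, MPK5 and HSFA2A had differences of 1.29, 1.24, 0.98 and 1.5. All 4 had an adjusted p between 7.7e-05 and 0.0006.

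Several members that were barely or moderately lower early were far lower at 24 h. YSL15 averaged -0.89 ± 0.55 at the short exposure and -3.90 ± 0.32 at 24 h, a difference of 3.02 (adjusted p = 0.0001). AOS4 averaged -0.36 ± 0.10 at the short exposure and -2.56 ± 0.34 at 24 h. CPK6 averaged -0.62 ± 0.19 at the short exposure and -2.17 ± 0.10 at 24 h. The nitrate genes NRT2.2 and NAR2.1 were higher at the short exposure, at 0.82 and 0.98, and stood at -1.07 and -0.84 at 24 h, with differences of 1.88 and 1.82. NAS1 and NAS2 did not follow YSL15: their differences of -0.79 (adjusted p = 0.22) and -0.92 (adjusted p = 0.08) were not called.

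In the opposite direction, some genes were higher at 24 h. OsABCG5 averaged -0.81 ± 0.80 at the short exposure and 2.73 ± 0.55 at 24 h, a difference of -3.54 (adjusted p = 0.0003). GSTU1 averaged 0.72 ± 0.09 at the short exposure and 2.02 ± 0.03 at 24 h. Cht8 averaged 2.23 ± 0.16 at the short exposure and 3.68 ± 0.79 at 24 h, and HSFA3 1.20 ± 0.28 at the short exposure and 2.28 ± 0.10 at 24 h. The differences of Cht8 and HSFA3, -1.45 and -1.08, lost their calls with the scanner's processed signals (-0.57, adjusted p = 0.49, and -0.78, adjusted p = 0.15). For OsOPR5, OsOPR2, ABCG36 and OsNAC3 the difference was not called, at 0.64, 0.31, 0.74 and 0.02 (adjusted p between 0.071 and 0.94).

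**Figure D4:**
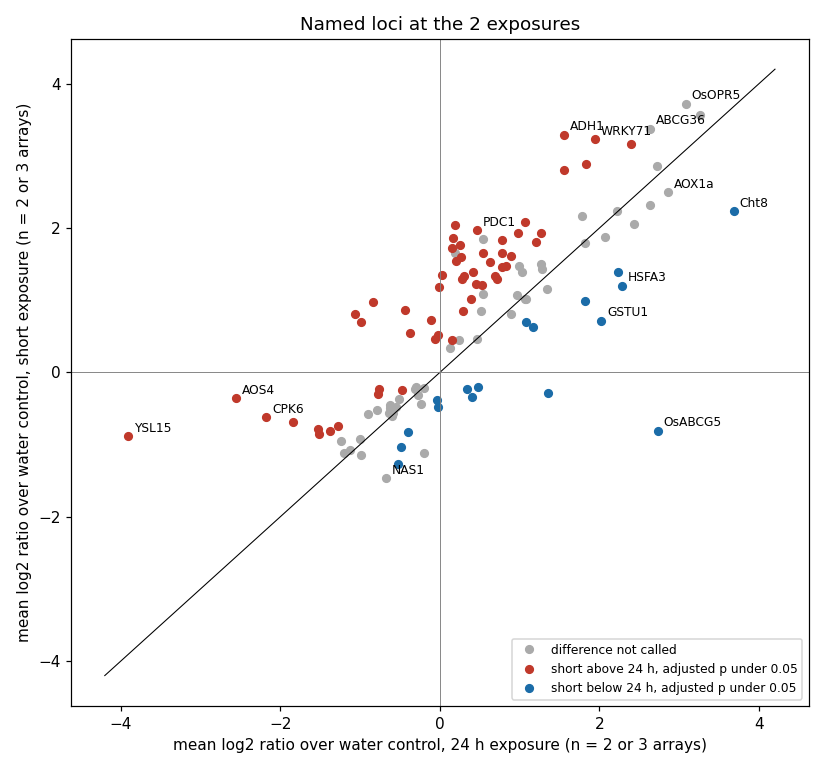
Each point is one of 119 named loci, with the mean log2 ratio over water control at the short exposure on the vertical axis and at 24 h on the horizontal axis (n = 3 arrays each, apart from 5 loci with 2 values at 24 h, of which CPK13 has 2 at the short exposure too), and the line marks equal values. Red points were above and blue points below the 24 h response by limma's test of the difference, and grey points were not called. YSL15 lies far to the left at -0.89 against -3.90, and OsABCG5 is below 0 at the short exposure only.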

How the data were processed

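Roots given Cr(VI) (Cy5) and roots in water (Cy3) were compared on 6 two-colour Agilent arrays. The spot intensity values are the scanner output deposited by the authors, and per the file headers the software was Feature Extraction 10.7.1.1. The series table holds log2 ratios deposited by the authors, which correlated at 0.99999 to 1 with the log2 ratio of the scanner files' processed signals (column medians from -0.178 to 0.0385); their direction is treated over control, and the authors' further processing is not given in the sources used here. The flags for outlier and above-background spots in the authors' files were used as filters and have no unit. The array files hold no sequencing reads, so the number of arrays limits the precision.

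Median spot and background intensity was corrected with normexp (offset 50) and loess within each array in limma 3.58.1 under R 4.3.3, with the package data.table (version 1.17.8). Control spots and spots with outlier flags were left out. Spots of a probe were averaged, and each locus was represented by its brightest probe. A gene was tested where either channel was well above background on at least 3 of the 6 arrays and each exposure had at least 2 values. One model with a mean for each exposure was fitted over all 6 arrays, so the 24 h arrays share the spread estimate, with Benjamini-Hochberg adjustment over all genes tested. The code was tested on simulated data.

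Members and lists were chosen with earlier results of these data known. Named loci are the 16 largest rises and 10 largest falls with one sign on all short arrays and, in each list, the called members with the 3 largest rises and 2 largest falls. OsOPR7, PBZ1, IRT1, ETR2, EIL1A and EIL1B, the shoot markers named, and the 3 microRNA families described were chosen after their values were seen. Names rest on the position check against the assembly ASM3414082v1, not on a pairing in the files, so the lists planned from gene descriptions could not be filled that way. The p-values measure the spread between these arrays. Replicate numbers did not pair the arrays of the exposures: the deviations of same-numbered arrays correlated at -0.234, -0.118 and -0.1. Alternatives were scaling, background correction, filter, probe choice, variance prior, array weights, blocks, slides and leaving out each array. Promoter sequences were not analysed here.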

Additional observations from a re-analysis of the deposited data

Results flagged for a closer look

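The response at the short exposure differed from that at 24 h by limma's test of the difference (adjusted p under 0.05 over all genes) in 71 of the 119 named loci. Values are short minus 24 h log2 ratios, and exposure and slide cannot be told apart. The loci were named for their call and size at the short exposure, so these counts describe the chosen loci only. Over all genes tested the difference was above 0 in 22.3% and below 0 in 16.4%. Among the named loci the difference was above 0 in 54. In iron, nitrate, ammonium and phosphate transport it was 3.02 for YSL15, 1.88 for NRT2.2, 1.82 for NAR2.1, 1.31 for YSL12, 0.78 for IRT2, 0.68 for OsPht1;1, 0.65 for AMT3-3 and 0.57 for OsPht1;4. In fermentation and sugar use it was 1.85 for AMY3D, 1.74 for ADH1, 1.5 for PDC1 and 0.54 for SUT1. For AMY3D none of the 6 arrays had a control signal well above background, so both of its ratios are bounds and its difference has no exact size. Among transcription factors it was 1.69 for WRKY62, 1.5 for HSFA2A, 1.29 for WRKY71, 1.05 for DREB1J, 1.04 for HSFA4D, 0.78 for OsNAC4, 0.69 for WRKY24, 0.67 for SNAC2, 0.54 for OsTIL1 and 0.29 for ART1. WRKY62 and HSFA4D had control signals near background on all 3 short arrays. Among kinases and calcium sensors it was 1.55 for CPK6, 1.34 for CML16, 1.24 for CML31, 1.01 for CPK4, 0.98 for MPK5, 0.84 for CPK20, 0.74 for MPK17, 0.56 for CPK13, 0.51 for MPK4 and 0.23 for CPK19.

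In hormone genes the difference was 2.2 for AOS4, 1.56 for IAA20, 1.33 for RAB16D, 1.11 for ACS2, 1.05 for JAZ12, 1.01 for JAZ11, 0.95 for GH3.2, 0.63 for JAZ6, 0.60 for IAA9 and 0.53 for IAA13. In defence metabolism it was 1.34 for NH1, 1.19 for KSL4, 1.16 for Os4CL1, 0.90 for Os4CL5, 0.65 for ZB8 and 0.48 for CHI. For transporters and walls it was 1.69 for EXPB11, 0.91 for STAR1, 0.88 for ABCG44, 0.72 for ABCG35, 0.65 for STAR2 and 0.57 for EXPA9. The difference was below 0 in 17: -3.54 for OsABCG5, -1.64 for HSP23.2, -1.45 for Cht8, -1.31 for GSTU1, -1.08 for HSFA3, -0.84 for HSP24.1, -0.82 for DREB2B, -0.74 for HSFA2B and for YSL9, -0.68 for EREBP1, -0.58 for IAA4, -0.55 for GRC2, -0.54 for PRX112, -0.46 for APX5, -0.43 for PRX74, -0.38 for EXPA8 and -0.34 for HSP18.9.

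Under every alternative with a value 41 of the 71 kept their call, and 30 lost it under at least 1. With 1 array left out, 12 lost it. CPK19 lost it without any of the 6 arrays (0.20 to 0.26). ART1 lost it without any short array, 24 h array 2 or 24 h array 3 (0.24 to 0.32), HSP18.9 without short array 1 or 3 or any 24 h array (-0.37 to -0.27), and IAA9 without short array 2 or 3 or any 24 h array (0.42 to 0.70). EXPA9 lost it without short array 1 or 2 or 24 h array 1 or 2 (0.40 to 0.57), and PRX112 without short array 1 or 3 or 24 h array 1 or 2 (-0.56 to -0.42). STAR2 lost it without short array 2 (0.47), short array 3 (0.67) or 24 h array 3 (0.46), GH3.2 without short array 2 (0.86) or 3 (0.90), JAZ6 without short array 2 (0.54) or 3 (0.57), EXPA8 without short array 3 (-0.35) or 24 h array 2 (-0.34), DREB1J without short array 3 (0.89), and CHI without 24 h array 2 (0.40).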

How the results depend on the processing

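The alternatives were listed with earlier results of these data known. Direction held for each of 119 named loci under every alternative with a value, except DREB1E with the median over its probes (0.36) and IAA13 with median centring (0.11). Calls were lost under at least 1 alternative by 27 of them, 22 with both slide 2 arrays left out. The processed signals kept all 119 directions and placed 26 values over 1.5-fold from the main ones, all further from 0. Genes at least 2-fold higher and lower numbered 1852 and 736 with those signals, and 1883 and 738 with the deposited table. With both slide 2 arrays left out, 3867 genes were higher and 2496 lower, 137 and 62 of the named loci, and 31 and 8 of the microRNA probes, and the short minus 24 h difference was above 0 in 2646 genes and below 0 in 1924. With median centring, 1839 differences were below 0 and 53 microRNA probes higher. Lower microRNA probes numbered 35 with the processed signals, 35 with the deposited table and 12 where both channels had to be above background. Apart from the fewer arrays or genes used, the cause was not tested. Without any 1 array, 5664 to 7158 genes were higher and 4042 to 5517 lower, 1035 to 1137 and 143 to 190 at 2-fold, 190 to 211 and 75 to 102 of the named loci, 56 to 83 and 14 to 22 of the microRNA probes, and 3964 to 4747 differences were above 0 and 2769 to 3407 below 0. Runs of neighbouring loci numbered 64 higher and 6 lower at 1.5-fold and 2 higher at 4-fold. With the replicate number as a block, which the data gave no reason to pair, 6561 genes were higher and 4854 lower. EREBP1 lost its call there (adjusted p = 0.061). The search of promoter letters was not run.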
